A study of Mus musculus with 4 samples.

Results

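Plau, Plaur, Plat, Serpinb2, Serpinb10, F3, F10, Thbd and Tfpi are 9 genes of plasminogen activation and blood coagulation, described here in bone marrow derived macrophages of female BalbC mice. They were chosen by pathway with the log2 signals of these same arrays already known, so their signals and ratios are a description and carry no test. All 9 were measured, each by 1 probe, among 19938 genes with a probe of a single symbol. Marrow cells of every condition matured into macrophages in L929-conditioned medium, which supplies M-CSF, their growth factor. Each condition had 1 Affymetrix array, on which biotin-labelled RNA is hybridised to gene-level probes: LPS/zVAD/Nec-1, LPS/zVAD, LPS and Control. LPS (a bacterial ligand of TLR4) was given at 10 ng/ml, zVAD (an inhibitor of caspases) at 50 μM and Nec-1 (an inhibitor of the kinase RIPK1) at 30 μM. The study compared these conditions to find inflammatory changes that depend on the kinase activity of RIPK1. How long each treatment lasted, the age of the mice and any pooling of marrow are not stated in the labels. Neither inhibitor was given without LPS, and Nec-1 was not given without zVAD, so its action on LPS alone cannot be told apart from its action on the mixture. With 1 array a condition there is no replicate spread, no p-value and no standard error for any ratio below.

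Plasmin is the protease that dissolves fibrin and degrades matrix. It is cut from plasminogen by the urokinase Plau, which cells hold on their surface with the receptor Plaur, or by the tissue activator Plat, and the serpin Serpinb2 (plasminogen activator inhibitor 2) inhibits both activators. Coagulation starts when tissue factor, the product of F3, binds factor VII and the complex activates factor X (F10), which leads to thrombin and fibrin. Tfpi blocks that step, and thrombomodulin (Thbd) turns thrombin towards the anticoagulant protein C. Activated macrophages are known to display tissue factor and to secrete urokinase, while clade B serpins remain largely inside cells.

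The promoters of 4 of the genes are shown because they share a short motif. The genes were not chosen by it, but the motifs searched were chosen with earlier results of these data known. RefSeq promoters (GRCm38.p6) were matched for 6 of the 9 genes, namely Plaur, Serpinb2, Serpinb10, F3, F10 and Tfpi, and not for Plau, Plat and Thbd. The 250 bases before the annotated start are printed 5′ to 3′ on the gene's strand, which is plus for all 4, at chr3:121723287-121723536 (F3), chr7:24462233-24462482 (Plaur), chr1:107511173-107511422 (Serpinb2, the more upstream of 2 annotated starts) and chr1:107528753-107529002 (Serpinb10). Capitals mark matches to the letters of an AP-1 motif (TGANTCA), an SP1 box (GGGCGG, or CCGCCC on the other strand) or a TATA box (TATAAA).
F3: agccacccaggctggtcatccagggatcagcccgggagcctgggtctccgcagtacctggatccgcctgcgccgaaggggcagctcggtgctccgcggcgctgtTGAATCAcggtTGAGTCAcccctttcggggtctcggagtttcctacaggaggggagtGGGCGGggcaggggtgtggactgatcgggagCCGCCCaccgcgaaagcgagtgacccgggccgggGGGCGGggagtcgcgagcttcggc
Plaur: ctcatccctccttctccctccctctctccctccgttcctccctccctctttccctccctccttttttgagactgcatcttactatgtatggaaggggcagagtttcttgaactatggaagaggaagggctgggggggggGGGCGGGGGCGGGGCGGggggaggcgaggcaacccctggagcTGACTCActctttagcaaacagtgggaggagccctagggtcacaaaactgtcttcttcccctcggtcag
Serpinb2: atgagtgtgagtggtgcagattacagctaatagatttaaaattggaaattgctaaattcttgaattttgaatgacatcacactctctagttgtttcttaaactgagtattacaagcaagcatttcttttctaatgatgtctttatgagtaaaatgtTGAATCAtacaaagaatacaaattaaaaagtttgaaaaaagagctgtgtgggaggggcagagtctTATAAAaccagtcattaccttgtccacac
Serpinb10: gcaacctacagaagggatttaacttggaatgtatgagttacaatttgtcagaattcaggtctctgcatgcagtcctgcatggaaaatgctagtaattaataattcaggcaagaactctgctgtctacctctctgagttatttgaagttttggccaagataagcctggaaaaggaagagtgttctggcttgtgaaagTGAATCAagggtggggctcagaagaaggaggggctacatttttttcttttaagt

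The AP-1 letters stood in the windows of 4 of these 6 genes (F3, Plaur, Serpinb2 and Serpinb10), and in 6.75% of 32851 RefSeq windows of the same length. Counts are by gene, with a match in any of its windows (2 each for Serpinb2 and Tfpi), while shares are by window. F3 held them in 2 places, from 146 to 140 and from 135 to 129 bases before its start. Plaur held TGACTCA from 69 to 63 bases before the start, Serpinb2 TGAATCA from 94 to 88, and Serpinb10 TGAATCA from 54 to 48. SP1 boxes stood in 3 of the 6 genes (F3, Plaur and Tfpi; 32.7% of all windows), with 3 matches each in F3 and Plaur, 2 of those in Plaur sharing a base. The TATA box, searched as TATAAA on both strands, matched in 2 (12.4% of all windows): Serpinb2 on its own strand, from 29 to 24 bases before the start, and Tfpi on the other strand, where it reads TTTATA from 127 to 122. The letters for a cAMP response element (TGACGTCA), an NF-kB motif (GGGNNTTCC) and an EGR motif (GCGTGGGCG) matched in 0 of the 6 genes. They were in 1.55%, 4.98% and 0.536% of all windows, and the EGR motif can overlap an SP1 box. Other spellings of these motifs were not searched, so a window without a match may still hold such a site. Each match is a run of letters and was not tested as a binding site. The motifs were chosen with earlier results of these data known. Nothing is therefore read from the counts of matches beside the shares of all windows.

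Among the plasminogen genes, the urokinase gene Plau was low with LPS, high with LPS/zVAD and in between once Nec-1 was added. Its log2 signal was 10.71 with LPS/zVAD/Nec-1, 13.14 with LPS/zVAD, 9.46 with LPS and 12.78 in Control. The LPS array thus held the lowest signal of Plau, and the LPS/zVAD and Control arrays lay within 0.36 of each other. LPS against Control gave a log2 ratio of -3.32, the 4th lowest of the 12203 genes past a filter on low signal (a highest signal of at least log2 6.47, the median over all probes and arrays). LPS/zVAD against LPS gave 3.68, or 12.8-fold, the 10th highest, and LPS/zVAD/Nec-1 against LPS/zVAD gave -2.43, or 5.40-fold lower. Against LPS alone, Plau remained 2.37-fold higher with LPS/zVAD/Nec-1, the 5th highest ratio of that comparison, so 33.8% of its log2 difference between LPS/zVAD and LPS was left. It was 4.21-fold lower with LPS/zVAD/Nec-1 than in Control. These are bulk samples, in which fewer cells of a type and less RNA per cell cannot be told apart.

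The urokinase receptor gene Plaur had a narrower range, with its highest signal on the same array as Plau. Its log2 signals were 11.24 with LPS/zVAD/Nec-1, 12.01 with LPS/zVAD, 11.21 with LPS and 10.80 in Control. The step from LPS to LPS/zVAD was 1.74-fold and the step back with Nec-1 1.70-fold, both under the 2-fold used for counts. LPS/zVAD against Control, at 2.31-fold, was the single comparison in which Plaur passed it. The other activator gene, Plat, lay between log2 5.69 (Control) and 5.82 (LPS/zVAD), under the filter level on all 4 arrays, so its probe gave no signal told apart from background.

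**Figure D1:**
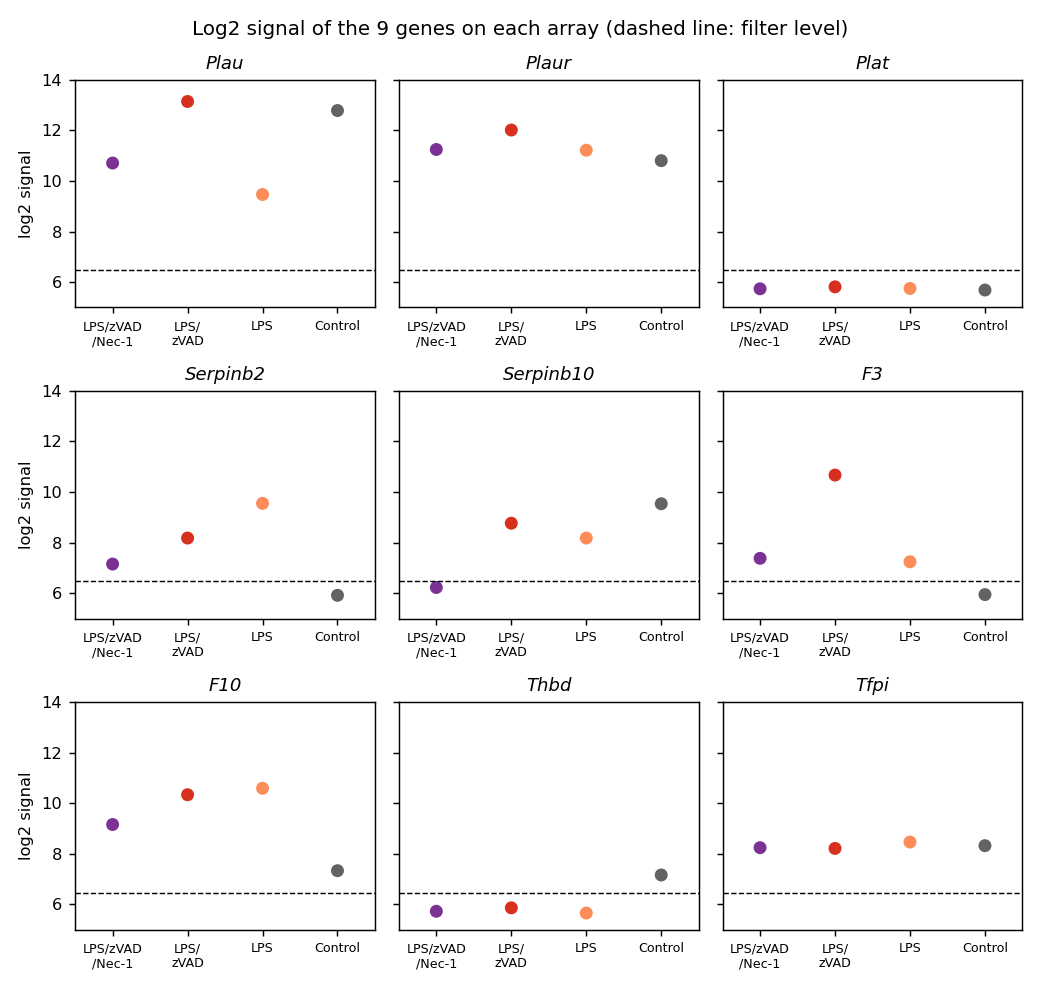
Log2 signal (vertical axis) of each of the 9 genes on the LPS/zVAD/Nec-1, LPS/zVAD, LPS and Control arrays, 1 array each, with the filter level of 6.47 as a dashed line. Plau and F3 peak with LPS/zVAD, Serpinb2 and F10 peak with LPS, Serpinb10 is lowest with LPS/zVAD/Nec-1, Thbd is above the line in Control alone, and Tfpi stays between 8.21 and 8.47.

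The inhibitor gene Serpinb2 followed another course, highest with LPS and lower with each inhibitor added. It had log2 signals of 7.16 with LPS/zVAD/Nec-1, 8.18 with LPS/zVAD, 9.55 with LPS and 5.92 in Control. LPS was at least 8.48-fold higher than Control (a log2 ratio of 3.63 as deposited). This is a bound, since the Control signal lay under the filter level, which replaced it. Serpinb2 was 2.59-fold lower with LPS/zVAD than with LPS, and a further 2.04-fold lower with LPS/zVAD/Nec-1 than with LPS/zVAD. Its log2 ratio of LPS/zVAD/Nec-1 against LPS, -2.40, was the lowest of all 12203 genes. The log2 difference of LPS/zVAD/Nec-1 from LPS was 175% of that of LPS/zVAD from LPS, so the array with both inhibitors lay farther from LPS than the array with zVAD did. LPS/zVAD/Nec-1 was still at least 1.61-fold higher than Control with that bound (log2 ratio 1.24 as deposited).

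Serpinb10 encodes bomapin, a clade B serpin of blood-forming and myeloid cells. Its log2 signals were 6.23 with LPS/zVAD/Nec-1, 8.77 with LPS/zVAD, 8.18 with LPS and 9.54 in Control. The LPS/zVAD/Nec-1 array was lowest, under the filter level, and the Control array highest. LPS was 2.56-fold lower than Control, and LPS/zVAD lay above LPS by 0.59 on the log2 scale. LPS/zVAD/Nec-1 was at least 4.92-fold lower than LPS/zVAD, at least 3.28-fold lower than LPS (the 6th lowest ratio of that comparison as deposited) and at least 8.39-fold lower than Control (the 4th lowest).

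In RefSeq order Serpinb2, Serpinb10 and Serpinb8 stand next to one another on chromosome 1. Serpinb8, a further clade B serpin, resembled Serpinb10 and not Serpinb2, with log2 signals of 7.45 with LPS/zVAD/Nec-1, 8.89 with LPS/zVAD, 8.14 with LPS and 9.22 in Control. Its ratios were -1.07 for LPS against Control, 0.74 for LPS/zVAD against LPS and -1.44 for LPS/zVAD/Nec-1 against LPS/zVAD on the log2 scale. Of 11697 genes compared, Serpinb8 had the 3rd closest profile to Serpinb10, at a Euclidean distance of 1.17 between the 4 log2 signals centred on each gene's mean. The AP-1 letters stood once in the Serpinb8 window too, as TGAGTCA, from 23 to 17 bases before the start. On the other side, Serpinb7 and Serpinb11 were under the filter level on every array, as was Cdh7 beyond Serpinb8.

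**Figure D2:**
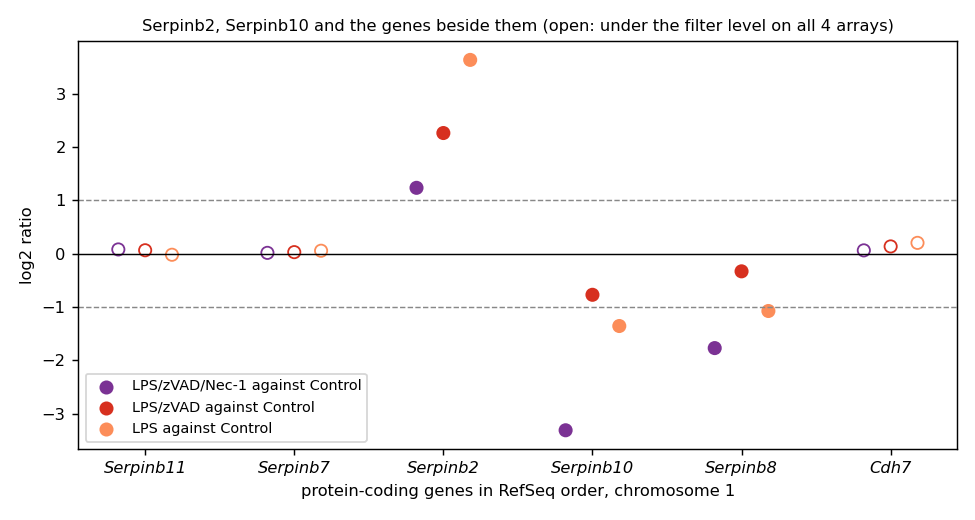
Log2 ratio against Control (vertical axis) of LPS/zVAD/Nec-1, LPS/zVAD and LPS for Serpinb2, Serpinb10 and the protein-coding genes beside them, in RefSeq order on chromosome 1, with 2-fold as dashed lines. Serpinb2 lies above Control on all 3 arrays, and Serpinb10 and Serpinb8 lie below it and are lowest with LPS/zVAD/Nec-1. The open points of Serpinb11, Serpinb7 and Cdh7 are under the filter level on every array. The filled points of Serpinb2, and of Serpinb10 with LPS/zVAD/Nec-1, are ratios as deposited in which an array was under that level.

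On the coagulation side, the tissue factor gene F3 was high on the LPS/zVAD array alone. Its log2 signals were 7.38 with LPS/zVAD/Nec-1, 10.67 with LPS/zVAD, 7.25 with LPS and 5.95 in Control, which was under the filter level. LPS/zVAD was 10.8-fold higher than LPS, the 15th highest ratio, and at least 18.4-fold higher than Control. LPS/zVAD/Nec-1 was 9.79-fold lower than LPS/zVAD, the 7th lowest ratio. The LPS/zVAD/Nec-1 and LPS arrays lay 1.10-fold apart, so 3.98% of the log2 difference between LPS/zVAD and LPS was left, against 33.8% for Plau. LPS against Control had a log2 ratio of 1.30 as deposited, and a bound of at least 1.71-fold.

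F10, the gene of factor X, was high on all 3 arrays with LPS and lowest among them with Nec-1. It stood at log2 9.16 with LPS/zVAD/Nec-1, 10.34 with LPS/zVAD, 10.59 with LPS and 7.33 in Control. LPS was 9.56-fold higher than Control, and LPS/zVAD 8.01-fold higher. LPS/zVAD and LPS lay 1.19-fold apart, under the 2-fold used for counts. LPS/zVAD/Nec-1 was 2.26-fold lower than LPS/zVAD and 2.70-fold lower than LPS, the 23rd lowest ratio against LPS, while it remained 3.54-fold higher than Control. The genes beside F10 in RefSeq order, F7 (factor VII) and Proz (protein Z), had log2 ratios of 0.58 and -0.30 for LPS against Control and stayed under 2-fold in every comparison, Proz with all 4 signals under the filter level.

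The anticoagulant genes Thbd and Tfpi showed no difference that followed either inhibitor by 2-fold or more. Thbd had log2 signals of 5.73 with LPS/zVAD/Nec-1, 5.87 with LPS/zVAD, 5.66 with LPS and 7.16 in Control. Only the Control signal was above the filter level, so each array with LPS was at least 1.62-fold lower than Control, with log2 ratios of -1.43, -1.30 and -1.51 as deposited. Tfpi stood at 8.24 with LPS/zVAD/Nec-1, 8.21 with LPS/zVAD, 8.47 with LPS and 8.32 in Control, a range of 0.25 that was wider than that of 12.1% of the genes past the filter. F3, at a range of 4.72, stood at the other end (99.4%).

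**Figure D3:**
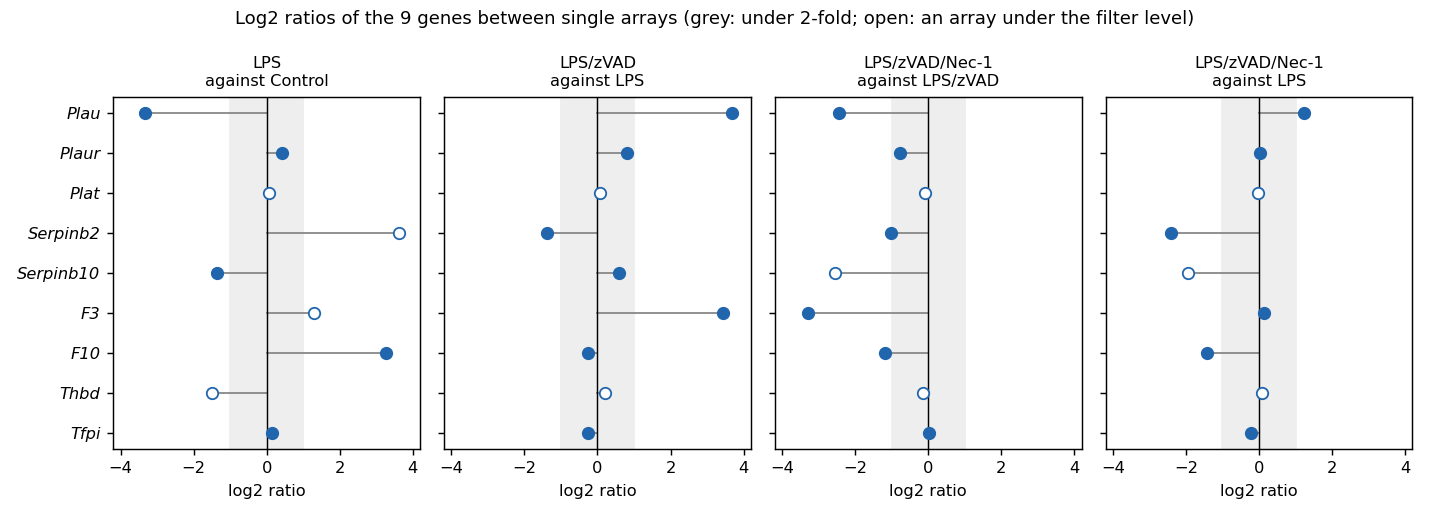
Log2 ratio (horizontal axis) of each of the 9 genes for LPS against Control, LPS/zVAD against LPS, LPS/zVAD/Nec-1 against LPS/zVAD and LPS/zVAD/Nec-1 against LPS, with ratios under 2-fold in the grey band and open points where an array was under the filter level. Plau changes side in each panel, F3 has its longest lines with LPS/zVAD in the ratio, and Serpinb2, Serpinb10 and F10 lie left of the band in the last panel.

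Counted at 2-fold, LPS against Control had 3 of the 9 genes higher (Serpinb2, F3 and F10) and 3 lower (Plau, Serpinb10 and Thbd). Among all 12203 genes past the filter, 8.24% were higher and 7.2% lower in that comparison. Of the 9 genes, 8 passed that filter, and Plat, which did not, was under 2-fold in every comparison. The median log2 ratio of the 9 genes, Plat under the filter included, was 0.14, beside -0.12 over all genes past the filter. LPS/zVAD against LPS had 2 of the 9 higher (Plau and F3; 3.25% of all genes) and 1 lower (Serpinb2; 3.59%), with medians of 0.21 and -0.05. Of all genes past 2-fold in that comparison, 47.5% were higher as deposited, 42.1% with arrays centred on their medians, 57.8% after quantile normalization and 61.1% after cyclic loess.

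Nec-1 added to LPS/zVAD gave 5 of the 9 genes lower (Plau, Serpinb2, Serpinb10, F3 and F10), beside 3.32% of all genes, and 0 higher, beside 1.14%. The median log2 ratio was -1.03 for the 9 genes, Plat included, and 0.07 for all genes past the filter. LPS/zVAD/Nec-1 against LPS separated the fewest genes, with 0.0738% of all genes higher and 0.541% lower. There 1 of the 9 was higher (Plau) and 3 were lower (Serpinb2, Serpinb10 and F10). The 9 genes were chosen with these values known, so nothing is read from their counts against the shares of all genes. These comparisons share arrays with one another and are not independent.

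**Figure D4:**
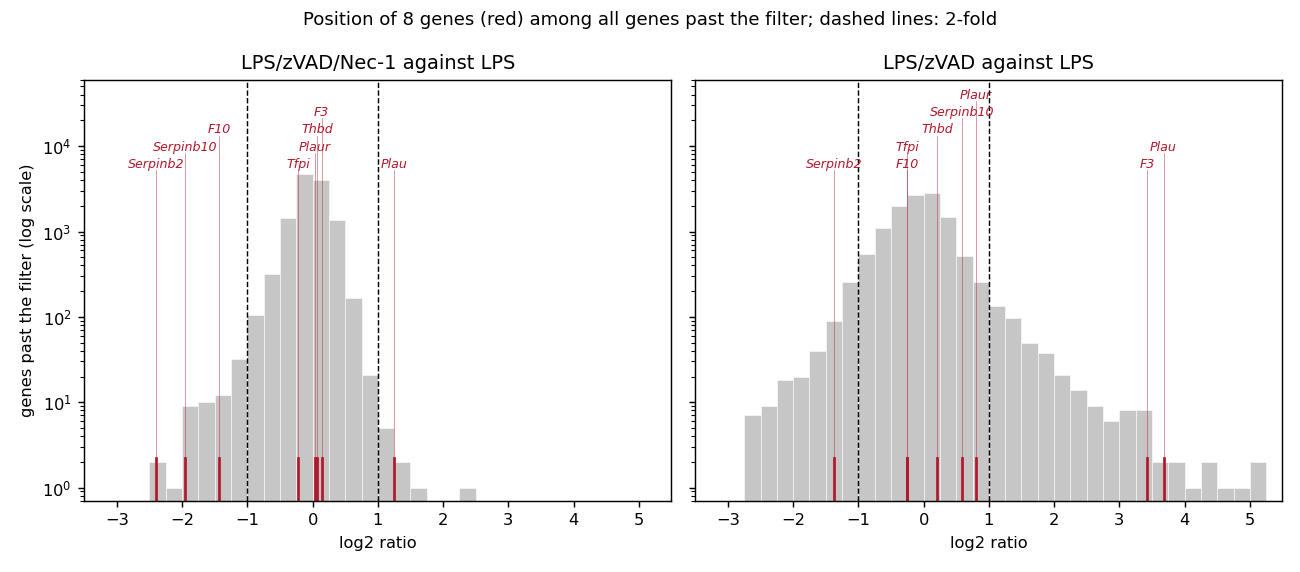
Number of genes past the filter (vertical axis, log scale) by log2 ratio (horizontal axis), for LPS/zVAD/Nec-1 against LPS on the left and LPS/zVAD against LPS on the right, with 8 of the 9 genes marked in red and 2-fold as dashed lines. On the left Serpinb2, Serpinb10 and F10 lie in the low tail at -2.40, -1.95 and -1.43 and Plau in the high tail at 1.24, while on the right Plau and F3 lie in the high tail at 3.68 and 3.43.

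Set against Control, LPS/zVAD had 4 of the 9 genes higher (Plaur, Serpinb2, F3 and F10; 8.79% of all genes) and 1 lower (Thbd; 10.7%). LPS/zVAD/Nec-1 against Control had 3 higher (Serpinb2, F3 and F10; 6.85%) and 3 lower (Plau, Serpinb10 and Thbd; 7.68%). The share of higher genes among those past 2-fold was 45.1% for LPS/zVAD against Control as deposited and 59.7% after cyclic loess, and 47.2% and 57.7% for LPS/zVAD/Nec-1 against Control.

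Other genes of the pathways were followed through 4 lists holding 82 genes, of which 73 were measured and 37 passed the filter. In LPS against Control 6 of the 37 were higher and 3 lower, beside 8.24% and 7.2% of all genes, and their median log2 ratio was -0.01. LPS/zVAD against LPS had 1 higher and 1 lower (3.25% and 3.59% of all genes; median of the lists 0.13). LPS/zVAD/Nec-1 against LPS/zVAD had 1 higher and 4 lower (1.14% and 3.32%; median -0.13), and LPS/zVAD/Nec-1 against LPS 0 and 0 (0.0738% and 0.541%; median -0.05). The corresponding medians of all genes were -0.12, -0.05, 0.07 and -0.02.

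The other plasminogen genes stayed within 2-fold with 1 exception. Of 9 past the filter, Lrp1, a receptor that clears protease and inhibitor complexes, lay below Control by 2.03-fold with LPS/zVAD/Nec-1, a call lost with centred arrays and after cyclic loess, and by 2.22-fold with LPS. No gene of the list passed 2-fold between arrays with LPS. Among 12 coagulation factors and vitamin K-dependent genes past the filter, Prrg4, a membrane protein with a Gla domain, was alone in passing 2-fold between arrays with LPS. It had log2 signals of 7.27 with LPS/zVAD/Nec-1, 10.65 with LPS/zVAD, 6.27 with LPS and 5.76 in Control. As with F3, the LPS/zVAD array was the high one: it was at least 18.2-fold above LPS, and LPS/zVAD/Nec-1 was 10.4-fold below it. Unlike F3, Prrg4 stayed higher with LPS/zVAD/Nec-1 than with LPS (7.27 and 6.27), just under 2-fold as deposited, with the LPS signal under the filter level. F13a1, the A subunit of factor XIII, was 2.03-fold lower with LPS/zVAD/Nec-1 than in Control, again under 2-fold with centred arrays and after cyclic loess.

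Of 10 anticoagulant and thrombin receptor genes past the filter, Procr, the endothelial protein C receptor, had the largest ratio to Control. Its log2 signals were 10.18 with LPS/zVAD/Nec-1, 10.30 with LPS/zVAD, 10.29 with LPS and 7.25 in Control, so the 3 arrays with LPS lay within 0.13 of one another. Procr was 8.24-fold higher with LPS than in Control. The thrombin receptor genes F2r and F2rl2 were 2.75-fold and 2.82-fold higher with LPS, and Gas6, a vitamin K-dependent ligand of the TAM receptors, was 3.23-fold lower. F2rl2 alone of the 10 passed 2-fold with the inhibitors, 2.96-fold lower with LPS/zVAD than with LPS and 2.09-fold higher with LPS/zVAD/Nec-1 than with LPS/zVAD, which was under 2-fold after cyclic loess.

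Of 6 further clade B serpins past the filter, 3 were higher with LPS than in Control: Serpinb9, an inhibitor of granzyme B, at 3.99-fold, Serpinb9b at least 2.23-fold and Serpinb6b at 2.40-fold. Serpinb8 was 2.10-fold lower, a call lost with centred arrays and after cyclic loess. LPS/zVAD against LPS had 0 of the 6 past 2-fold, with a median log2 ratio of 0.47 (0.05 over all 21 measured, with no filter). Nec-1 added to LPS/zVAD had 3 of the 6 lower, namely Serpinb8 (2.71-fold), Serpinb1a, an inhibitor of neutrophil proteases (2.08-fold), and Serpinb9b (2.02-fold), beside 3.32% of all genes. The median log2 ratio of the 6 was -0.98, beside 0.07 over all genes past the filter, and that of all 21 measured clade B serpins on the list, with no filter, was 0.02. Serpinb1a, Serpinb6b, Serpinb9 and Serpinb9b each had their highest signal on the LPS/zVAD array. Near-identical serpin copies can share probe sequence, so the signals of Serpinb9b and Serpinb6b are less certain.

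**Figure D5:**
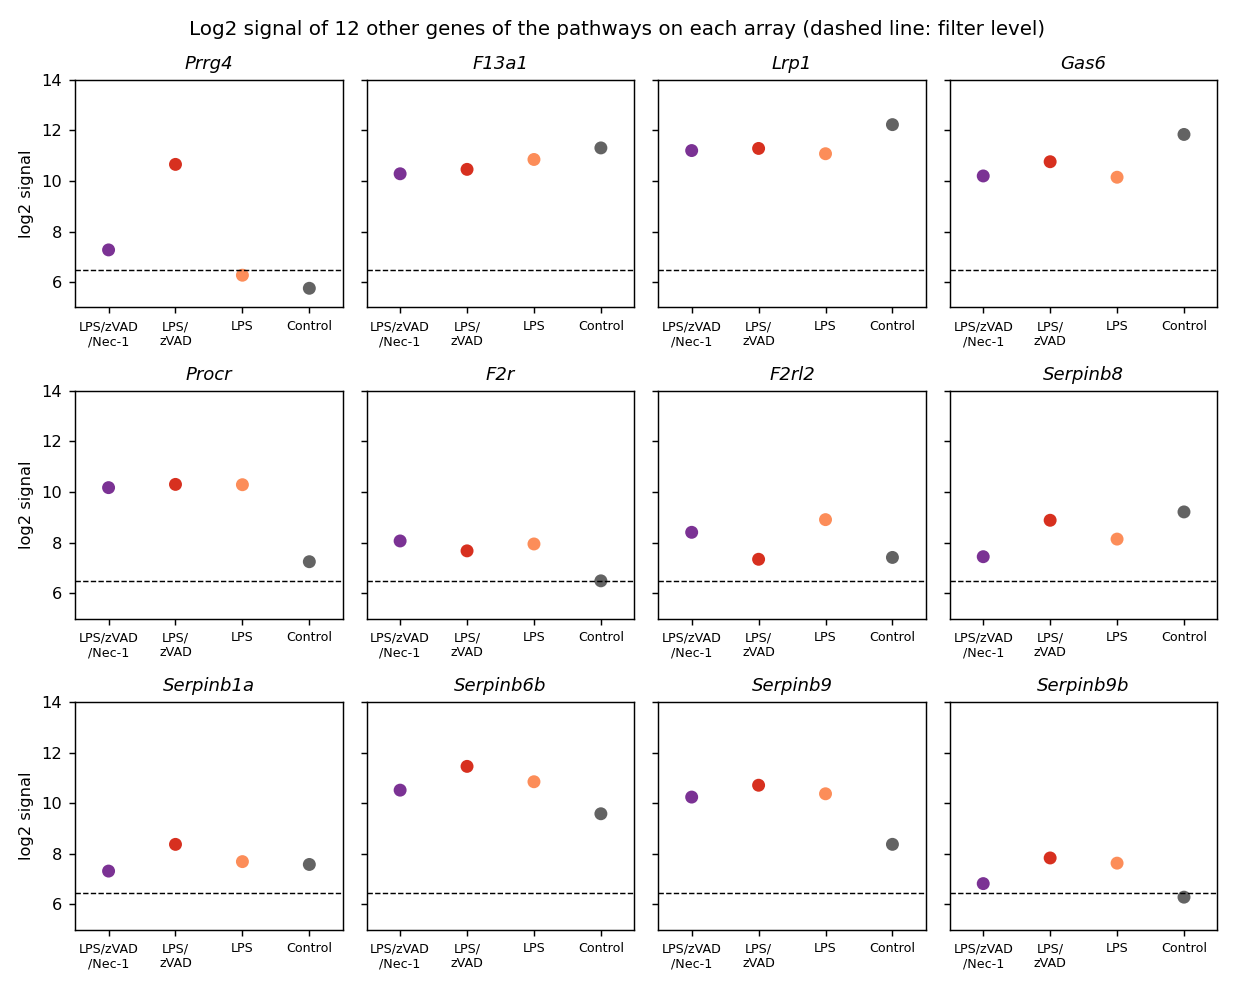
Log2 signal (vertical axis) of 12 other genes of the pathways on the LPS/zVAD/Nec-1, LPS/zVAD, LPS and Control arrays, 1 array each, with the filter level of 6.47 as a dashed line. Prrg4 is high with LPS/zVAD alone (10.65), Procr is lower in Control (7.25) than on the other 3 arrays, and F2rl2 is high with LPS (8.91).

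Profiles most like each of the 8 genes past the filter were sought among 11697 other genes by the Euclidean distance of the 4 centred log2 signals. For F3 the closest were Slc39a2 (0.41), a zinc transporter, Ppp1r15a (0.53), a regulator of a phosphatase in the stress response, and Maff (0.57), a small MAF factor. For Plau they were the chemokine receptor Cxcr4 (0.73), H1f1 (0.94) and Snx29 (1.13). Serpinb2 lay closest to Car2 (0.49), Slamf1 (0.61) and Timp1 (0.80), and F10 to Timp1 (0.31), Slamf1 (0.37) and Il1f9 (0.43), so Slamf1 and Timp1 were near to both. Serpinb10 had Gnl3 (1.14) and Fads2 (1.16) ahead of Serpinb8. Plaur lay closest to Calcrl (0.03), Prpf38b (0.04) and Ino80d (0.08), Thbd to Pole (0.04), Cmtr2 (0.04) and Rrm1 (0.06), and Tfpi to Trmt44 (0.01), Pon2 (0.03) and Smim10l1 (0.03). The distances of Plaur and Tfpi are small in part because their own ranges are narrow, and those of Thbd rest on 3 signals under the filter level.

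The arrays carried the markers of macrophages, with 8 of 8 listed genes past the filter. Endothelial cells, a main source of Thbd, Procr and Tfpi, had 7 of 10 markers past the filter. Tek, Emcn and Esam were under it on every array. Kdr, Pecam1 and Cdh5 were at least 2-fold higher with LPS than in Control as deposited. In Control, Pecam1 and Cdh5 were under the filter level. Vwf, Egfl7, Tie1 and Erg were lower with LPS than in Control, each by under 2-fold. The median log2 ratio of the 7 was -0.05 in that comparison. The summed linear signal of the 10 was 1659 with LPS/zVAD/Nec-1, 1445 with LPS/zVAD, 1982 with LPS and 956 in Control. Kdr was the brightest of the 10 on each array with LPS (log2 9.99 with LPS, 7.15 in Control) and weighs most in those sums. The mean log2 signals of the 10 were 6.83, 6.63, 6.79 and 6.40 in the same order. Of 5 measured megakaryocyte and platelet markers 4 passed the filter, and Ppbp was the single one past 2-fold between arrays. Neutrophil markers passed in 8 of 10, with Ly6g and S100a9 at least 2-fold higher with LPS than in Control. Fibroblast markers passed in 6 of 8. Of these, Dcn was at least 2-fold higher with LPS than in Control, where it was under the filter level. Col1a1, Col1a2, Col3a1, Col6a3 and Pdgfrb were lower with LPS than in Control, each by under 2-fold. The median log2 ratio of the 6 was -0.24. B cell and T cell markers passed in 1 of 4 and 2 of 5. The part of these markers in the results was not tested. The medians of the 4 arrays lay between log2 6.41 and 6.52.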

How the data were processed

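The deposited table holds 1 log2 signal for each of 35556 probes on 4 arrays, which the authors deposited after processing in Affymetrix Expression Console, as the submitters' notes and the labels state. That the scale is log2 follows from the range of the values. Its version, background correction, summarisation, normalization and genome build are not given here, and a shift between arrays would move every ratio. Arrays were grouped by title. The platform annotation named 21789 probes with a single symbol, 1621 had several and 12146 none, and probes with several or none were not used. Of several probes for a gene, the brightest on average was taken. Ratios are differences of log2 signals between single arrays, counted at 2-fold or more among the 12203 genes whose highest signal reached the median of all values, and 7735 genes were left out. Signals under that level were taken as not told apart from background, and a fold against them is a bound counted from it. Promoters and gene order are from RefSeq (GRCm38.p6).

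The members, gene lists, motifs and naming rule were chosen with earlier results of these data known. The rule named every member, up to 4 members of a list per comparison that passed 2-fold and the filter, the 3 closest profiles of each member (predicted, RIKEN and clone symbols left out) and the genes beside Serpinb2, Serpinb10 and F10. Serpinb7, Serpinb11 and Cdh7 came from the last part. Alternatives were centred arrays, quantile normalization, cyclic loess (limma 3.58.1 in R 4.3.3), thresholds of 1.5-fold and 3-fold, signals raised to the filter level, the mean of a gene's probes, no filter and a filter at log2 8. Counting used Python 3.11.15. The call rule was run on simulated arrays with little noise and shifts past 2-fold in genes well above the filter level. That run checks the counting only, and not the spread between replicates or signals near the filter level. The number of arrays limits the precision.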

Additional observations from a re-analysis of the deposited data

How the results depend on the processing

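Centring each array on its median, quantile normalization, cyclic loess and averaging probes each left all 54 ratios of the 9 genes (9 genes in 6 comparisons) on their side of 2-fold. The sign turned under at least 1 rescaling for 6 of the 54, all near 0: Plat in LPS/zVAD against LPS, Plaur and Thbd in LPS/zVAD/Nec-1 against LPS, and Tfpi in LPS/zVAD/Nec-1 against LPS/zVAD and in both comparisons of zVAD arrays with Control. The widest turn was that of Tfpi in LPS/zVAD against Control, at -0.11 as deposited and 0.11 after cyclic loess. Probe averaging could change nothing, since each gene had 1 probe. Signals raised to the filter level took 6 of the 54 under 2-fold: F3 in LPS against Control, Thbd in each comparison with Control, and Serpinb2 and F3 in LPS/zVAD/Nec-1 against Control. That setting left 0 lower genes in LPS/zVAD against Control, and 1 higher and 2 lower in LPS/zVAD/Nec-1 against Control. With it, LPS against Control had 2 higher and 2 lower. A threshold of 1.5-fold gave 4 higher in LPS/zVAD against LPS, 6 lower in LPS/zVAD/Nec-1 against LPS/zVAD and 2 lower in LPS/zVAD against Control. A threshold of 3-fold gave 2 higher and 1 lower in LPS against Control, and 0 lower in LPS/zVAD against LPS. That threshold gave 3 lower in LPS/zVAD/Nec-1 against LPS/zVAD, and 0 higher and 2 lower in LPS/zVAD/Nec-1 against LPS. Against Control, 3 were higher and 0 lower for LPS/zVAD, and 1 higher and 2 lower for LPS/zVAD/Nec-1. In the 4 pathway lists, cyclic loess left 0 higher in LPS/zVAD/Nec-1 against LPS/zVAD and 0 lower in LPS/zVAD against Control, where quantile normalization gave 2. Lower list genes in LPS/zVAD/Nec-1 against Control numbered 2 with centred arrays and 2 after cyclic loess. Totals of the 4 lists that changed by 1.5-fold or less are not given here. The cause of these shifts with scaling was not tested. The median log2 ratio of all genes in LPS/zVAD against Control was 0.00 after cyclic loess and -0.14 as deposited, and in LPS against Control -0.01 with centred arrays and -0.12 as deposited. No paired analysis was possible because each condition has 1 array. A signal under the filter level limits what can be said of Plat on every array and of Thbd with LPS.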
